A study of Mus musculus with 189 samples.

Results

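The PRDM genes encode proteins with a PR domain, a relative of the SET domain of histone methyltransferases, followed by zinc fingers that bind DNA. Expression of Prdm4, Prdm6, Prdm10, Prdm14, Prdm15 and Mecom (also called Prdm3 or Evi1) was followed from the mouse oocyte to the blastocyst. These 6 genes were 6 of the 192 genes assayed by microfluidic quantitative PCR. They were chosen by name, as members of the family with an assay that passed the quality control of the study. The panel held 14 assays of the family, of which 7 passed, the other one being Prdm2. The remaining 7 were marked as failed and were not used.

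The cells came from superovulated F1 females (C57BL/6 x DBA/2), mated to C57BL6 males where embryos were needed. Embryos were then cultured in KSOMaa medium at low oxygen, so all stages after the zygote are of cultured embryos. The main set held 168 samples of 58 oocytes, zygotes or embryos, namely 11 MII oocytes (eggs arrested in the second meiosis), 14 zygotes and 21 2-cell, 7 3-cell, 12 4-cell, 27 8-cell, 26 16-cell and 50 32-cell samples. A sample was mostly 1 blastomere (a cell of the cleaving embryo), or else a whole embryo or, at 16 and 32 cells, a small group of cells (6 of 26 and 18 of 50 samples). The 16-cell stage rested on 2 embryos, whose blastomeres carry a source label that mixes morula and blastocyst, while their stage label gives the morula of 16 cells. Whole embryos of 2, 4 and 8 cells were in the main set, whereas the 3 whole embryos of 16 cells and the 3 of 32 cells were not. Blastomeres of 1 embryo share their source, so they were averaged before stages were compared, and 11 2-cell blastomeres with no named embryo counted as 1 embryo. The 2-cell samples 2c.A.e1, 2c.A.e2 and 2c.A.e3 are labelled as blastomeres, while their titles name an embryo. Each title was taken as a separate embryo, and 2c.A.e1 was averaged with the blastomeres of that embryo. The labels number the samples but do not say which female they came from, so p-values measure the spread between these embryos, which may be of few females.

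Levels are log2 values relative to 3 control genes (Hnrnpr, Ssu72 and Ube2e1), where a PCR cycle is 1 unit. A gene with no signal by cycle 30 was listed as undetected and has no level of its own. Its number follows the amount of control RNA in the tube, and averaged -17.08 in oocytes and -12.46 at 32 cells, where the mean Ct (the cycle at which signal appears) of the control genes was 12.9 and 17.5. Counts of samples with a signal are therefore given beside the means. Markers followed the stages in part. The germ cell gene Dazl was detected in 11 of 11 oocytes, 1 of 26 16-cell samples and 8 of 50 32-cell samples. ZP3, another oocyte gene, had a signal in 11 of 11 oocytes, but still in 24 of 26 16-cell and 20 of 50 32-cell samples. The trophectoderm gene Cdx2 had one in 26 of 26 16-cell samples and also in 11 of 11 oocytes, at mean levels of -0.05 and -7.90. Across all 156 tested genes, 7 to 44 were undetected in a sample of the main set (medians by stage 12 to 24.5). Another 3 samples with little control RNA were left out of the main set. Assays differ in their efficiency, so levels were compared within a gene and not between genes.

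Several of these genes have known roles close to this material. Prdm14 guards naive pluripotency in embryonic stem cells and is needed to form primordial germ cells. Prdm15 and Prdm10 act in pluripotent cells and in early development, Mecom is best known in haematopoietic stem cells, and Prdm6 in vascular smooth muscle. The oocyte hands its stored RNA to the embryo, and this RNA is removed while the genome of the embryo is switched on, in the mouse mainly at the 2-cell stage.

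From the zygote to the 2-cell embryo all 6 genes changed, with 3 moving up and 3 down. Prdm14, Prdm15 and Prdm10 rose by 7.51 ± 1.44, 4.59 ± 0.57 and 4.46 ± 0.35 log2 units (difference ± SE, 14 zygotes against 8 embryos). The size for Prdm14 depends on the value that stands for no signal in 7 of the 14 zygotes, and was 4.22 ± 0.58 with every value below -10 set to -10. Prdm6 fell by 6.43 ± 0.94, Mecom fell by 2.53 ± 0.59 and Prdm4 fell by 0.56 ± 0.23. The sizes for Prdm6 and Mecom also depend on the value for no signal. Of 15 single 2-cell blastomeres, 8 had a Prdm6 signal and 11 a Mecom signal. Over 17 alternatives the Prdm6 difference lay between -9.43 and -4.63 and the Mecom difference between -5.53 and -1.88. In limma with Benjamini-Hochberg adjustment over 156 genes, the adjusted p was between 1.43e-16 (Prdm10) and 0.0255 (Prdm4). Of all genes tested, 68.6% changed in this step. Most genes move here, so the count of 6 of 6 does not set the members apart. No member changed from the MII oocyte to the zygote (0 of 6, also at an unadjusted p of 0.05), where 1.92% of all genes did.

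**Figure D1:**
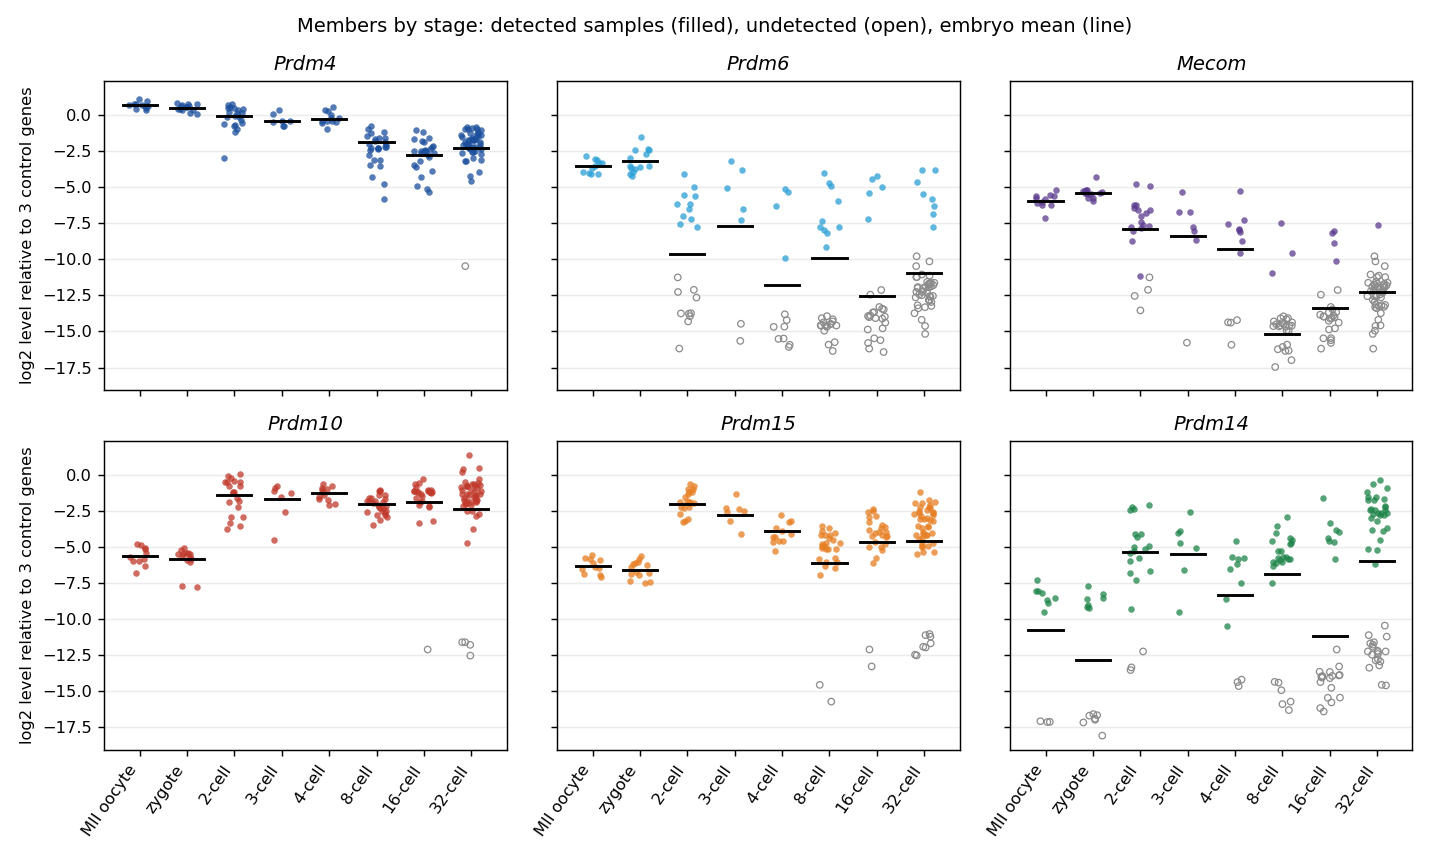
Level of each gene (log2 relative to 3 control genes, vertical axis) in every sample of the main set by stage (horizontal axis). Filled points are samples with a signal, open points are undetected samples, and the line is the mean over oocytes or embryos. Prdm10 and Prdm15 step up between zygote and 2-cell, whereas Mecom has a signal in 17 of 21 2-cell samples and in 1 of 50 32-cell samples.

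Upstream sequence is shown for Prdm10 and Prdm15, which rose together at the 2-cell stage and were detected in every sample up to it, and for Prdm4, which was abundant in the oocyte. The windows hold the 250 bases before the first transcription start that RefSeq lists for each gene (build GRCm38.p6), 5′ to 3′ on the strand of the gene. The RefSeq table held 4 of the 6 genes. Capitals mark CCAAT and GGGCGG, searched on both strands as CCAAT or ATTGG and GGGCGG or CCGCCC, with no overlap between them. Prdm10 is at chr9:31280299-31280548 on the plus strand, Prdm15 at chr16:97851851-97852100 and Prdm4 at chr10:85916987-85917236, both on the minus strand.
Prdm10: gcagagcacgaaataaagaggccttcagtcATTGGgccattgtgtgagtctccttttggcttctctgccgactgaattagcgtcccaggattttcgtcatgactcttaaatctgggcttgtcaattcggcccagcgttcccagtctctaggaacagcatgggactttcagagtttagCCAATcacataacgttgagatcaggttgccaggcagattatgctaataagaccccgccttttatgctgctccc
Prdm15: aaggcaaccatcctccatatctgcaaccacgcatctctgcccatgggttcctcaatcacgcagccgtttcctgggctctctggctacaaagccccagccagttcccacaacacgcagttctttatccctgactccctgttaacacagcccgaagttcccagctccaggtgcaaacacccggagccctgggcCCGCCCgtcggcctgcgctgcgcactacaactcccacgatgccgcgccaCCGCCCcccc
Prdm4: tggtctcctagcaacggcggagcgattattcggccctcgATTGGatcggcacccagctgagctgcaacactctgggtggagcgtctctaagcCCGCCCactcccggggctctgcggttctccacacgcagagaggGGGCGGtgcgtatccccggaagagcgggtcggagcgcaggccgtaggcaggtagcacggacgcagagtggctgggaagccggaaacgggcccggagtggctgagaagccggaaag

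The Prdm10 window held 2 CCAAT and no GGGCGG, the Prdm15 window 2 GGGCGG and no CCAAT, and the Prdm4 window 1 and 2. Over the first listed start of 27025 genes, 34.5% of windows held CCAAT and 32.9% GGGCGG, so these letters are common. TATAAA, searched on both strands, is in 13% of all windows and in none of the 3. The 2 genes whose levels rose alike shared neither motif in these windows, which describes these letters only.

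Prdm10 made a single step and then stayed near its new level. In zygotes its level lay between -7.76 and -5.07 (median -5.58), and in 2-cell embryos between -3.57 and -0.49 (median -1.22), with no overlap. How many of all 156 genes separate these stages likewise was not counted, and 68.6% of them changed in this step. The mean was -1.28 at 4 cells, -2.02 at 8 cells, -1.86 at 16 cells and -2.37 at 32 cells, and none of these steps passed the test. Almost all late samples had a signal (71 of 76). Among the 156 genes, the pattern over the 58 oocytes and embryos was most like that of the histone deacetylase gene Hdac1 (Pearson r = 0.93) and of Kdm5b (r = 0.92), which codes for an H3K4 demethylase.

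Prdm15 rose in the same step but did not hold its level. Zygotes lay between -7.50 and -5.66 and 2-cell embryos between -3.29 and -0.95. The level then fell by 1.90 ± 0.69 from 2 to 4 cells (adjusted p = 0.0313), where 32.7% of all genes changed and Prdm15 was the 1 member that did. Without the 2-cell samples titled with an A, which leaves 3 whole embryos, this difference was -1.29 (adjusted p = 0.425). The level fell by a further 2.20 ± 0.71 from 4 to 8 cells (adjusted p = 0.00929). The 3 embryos caught at 3 cells lay between, at -2.09, -2.97 and -3.20. From 8 cells on no step passed the test, with means of -6.09, -4.69 and -4.62 at 8, 16 and 32 cells. Embryo e7 of the 8-cell stage stood apart at -12.22, since 2 of its 3 blastomeres gave no signal, against -5.79 for the next lowest embryo. Without it the difference from 4 to 8 cells was -1.17 ± 0.52 and no longer passed the test (adjusted p = 0.061). The genes most like Prdm15 were Nf2 (r = 0.68), a regulator of the Hippo pathway, and the H3K9 demethylase gene Kdm3a (r = 0.66), both well short of the likeness seen for Prdm10.

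Prdm14 was near the detection limit before genome activation. A signal was found in 8 of 11 oocytes and 7 of 14 zygotes, where the detected values averaged -8.42 ± 0.67 and -8.66 ± 0.54 (SD). At 2 cells 18 of 21 samples had a signal, with detected values from -9.35 to -2.11. Embryo means of the 2-cell stage ranged from -7.32 to -2.11, all above the highest zygote (-7.72), while some single blastomeres were as low as the zygotes with a signal. Thereafter the means moved between -5.51 (3 cells), -8.33 (4 cells), -6.90 (8 cells), -11.21 (16 cells) and -5.99 (32 cells), and no step passed the test (for 16 to 32 cells, 5.22 ± 2.61, adjusted p = 0.203). The mean over blastomeres of 1 embryo mixes cells with and without a signal, and the SE of the late steps was large. The 3 whole 16-cell embryos, which were not in the main set, had Prdm14 at -4.72, -5.91 and -5.09. With every value below -10 set to -10, the rise from 16 to 32 cells did pass (2.97, adjusted p = 0.0425). The most similar genes were Ehmt2 (r = 0.65), an H3K9 methyltransferase gene, and Cbx3 (r = 0.61), whose product HP1 gamma reads that mark.

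Prdm4 was abundant in the oocyte, and its level relative to the control genes was lower at later stages. Oocytes lay between 0.36 and 1.13, zygotes between 0.11 and 0.83 and 2-cell embryos between -0.62 and 0.60, so the small fall at 2 cells left the groups overlapping. That call was lost when 1 control gene, Hnrnpr, was left out (difference -0.14, adjusted p = 0.632). A larger difference relative to the control genes came from 4 to 8 cells, when Prdm4 fell by 1.65 ± 0.29 (adjusted p = 2.69e-06) and embryo means went from between -0.71 and 0.36 to between -3.59 and -0.98. Without normalization it was -1.32 ± 0.59 and did not pass (adjusted p = 0.0928), and in whole embryos the mean content was 15.71 at 4 cells and 15.51 at 8 cells while that of the control genes was 15.88 and 16.84. Every sample of the main set but 1, a cell of the 32-cell stage, had a signal. Its pattern was most like that of Dazl (r = 0.93), a germ cell RNA-binding protein gene, and Bmi1 (r = 0.91), a subunit of Polycomb complex PRC1.

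Prdm6 was detected in 11 of 11 oocytes and 14 of 14 zygotes, at -3.54 ± 0.44 and -3.17 ± 0.80 (SD), and then in a minority of samples at most later stages. A signal was present in 11 of 21 samples at 2 cells, 5 of 7 at 3 cells, 4 of 12 at 4 cells, 10 of 27 at 8 cells, 5 of 26 at 16 cells and 8 of 50 at 32 cells. Where present it averaged -6.21 at 2 cells and -5.43 over the 16- and 32-cell samples, with single values of up to -4.05 and -3.77, against zygotes from -4.19 to -1.47. No step after the 2-cell stage passed the test. The patterns closest to it were those of Mapk3, a MAP kinase gene, and of Ezh2, the H3K27 methyltransferase gene of PRC2 (both r = 0.81).

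Mecom declined in 2 steps and fell below detection in most later samples. It was detected in all oocytes and zygotes, at -5.91 ± 0.52 and -5.36 ± 0.38 (SD), in 17 of 21 2-cell, 6 of 7 3-cell and 8 of 12 4-cell samples, and in 3 of 27 8-cell samples. From 4 to 8 cells it fell by 5.91 ± 0.74 (adjusted p = 1.72e-09), a size set by the value that stands for no signal in most 8-cell samples. At 16 cells a signal was found in 1 of 13 and 3 of 13 samples of the 2 embryos, and at 32 cells in 1 of 50 samples. Mecom lay near the limit of its assay, so absence of a signal does not mean absence of its RNA. In all, 3 members changed from 4 to 8 cells, all lower (Mecom, Prdm15 and Prdm4), where 49.4% of all genes changed. The pattern of Mecom was most like those of Sfmbt1 (r = 0.92), a Polycomb-related gene, and Whsc1 (r = 0.91), an H3K36 methyltransferase gene.

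**Figure D2:**
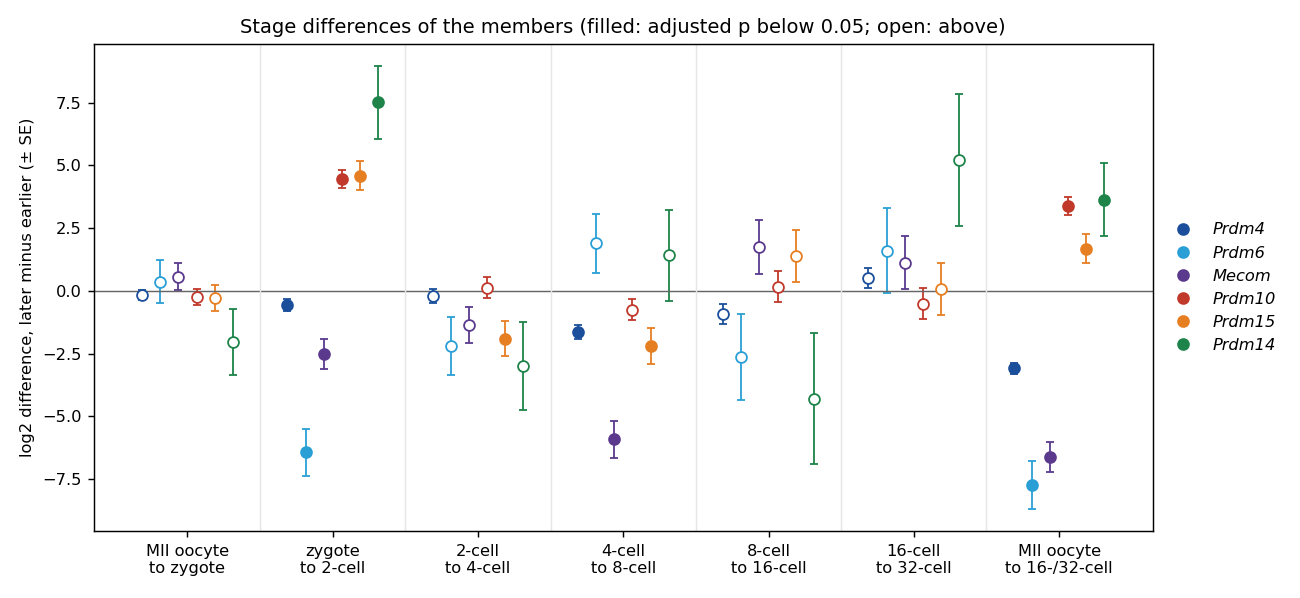
Difference between stages (later minus earlier, log2, vertical axis) with its SE for each gene and step (horizontal axis), filled where the adjusted p was below 0.05. All 6 points are filled from zygote to 2-cell, none is from MII oocyte to zygote, from 8 to 16 cells or from 16 to 32 cells, and the large bars of Prdm14 belong to steps that mix cells with and without a signal.

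The later steps moved few members. None changed from 8 to 16 cells, where Prdm4 alone had an unadjusted p below 0.05 and 28.2% of all genes were called. None changed from 16 to 32 cells, where the count at an unadjusted p was also 0 and 10.9% of all genes were called. Both steps rest on the 2 embryos of the 16-cell stage. The step from 8 to 16 cells also sets whole embryos and blastomeres against single or grouped blastomeres only. Over 17 alternative fits the Prdm14 difference in that step lay between -6.18 and -0.72, and 3 of them passed the test.

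Between the ends of the series, the MII oocyte and the 9 embryos of 16 or 32 cells, all 6 genes differed. Prdm10 was higher by 3.38 ± 0.35, Prdm14 by 3.64 ± 1.46 and Prdm15 by 1.68 ± 0.58 log2 units relative to the control genes. Prdm4, Mecom and Prdm6 were lower, with differences of -3.09 ± 0.23, -6.61 ± 0.60 and -7.75 ± 0.95. Prdm14 had a signal in 8 of 11 oocytes and in 38 of the 76 late samples, and Prdm6 and Mecom in 13 and 5 of the 76. The sizes for these genes depend on the value that stands for no signal. It averaged -17.08 in oocytes, -14.31 at 16 cells and -12.46 at 32 cells. Over 17 alternatives the Prdm14 difference lay between -0.66 and 4.70, and 12 of them called it. In this comparison 84.6% of all genes were called, 37.8% higher and 46.8% lower, so neither the count nor the split of members sets them apart. The direction of the 3 higher genes depended on the scale. On the deposited normalized values, which use Gapdh, Hspa8 and Lmnb1 as controls, the median of all genes dropped by 3.91 in place of 0.35, and 20 genes were higher and 115 lower in place of 59 and 73. Prdm10 was then at -0.18 (adjusted p = 0.666), Prdm14 at 0.08 (adjusted p = 0.956) and Prdm15 at -1.87 (adjusted p = 0.00174). Relative to the median of all genes, which no such scaling can move, the differences were 3.73, 3.99 and 2.03 for these 3 and -2.74, -6.26 and -7.40 for Prdm4, Mecom and Prdm6. Prdm2, the other family gene with a passed assay, did not pass the test (-0.27, adjusted p = 0.19), and on the deposited values it was at -3.83.

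Related genes of the panel moved in both directions over the same interval, and most of these directions depended on the scale too. Of 10 genes of the pluripotency network in which Prdm14 acts, 7 were higher, 1 was lower and 2 did not pass, with a median difference of 4.13 against -0.35 for all genes. On the deposited values 5 were higher, 4 lower and 1 did not pass (median 0.58, against -3.91 for all genes). Nanog and Esrrb, both transcription factors of that network, were higher on both scales, by 17.93 and 14.58 relative to the controls used here and by 14.37 and 11.02 on the deposited values. Prdm14 is thought to act with PRC2, of whose 7 genes 2 were higher (Mtf2 and Jarid2) and 5 lower, with a median of -1.92, and on the deposited values all 7 were lower. The 5 H3K9 methyltransferases comprised 2 higher and 3 lower genes, against 1 higher (Suv39h1), 3 lower and 1 that did not pass on the deposited values. Of the 3 H4K20 enzymes 2 were higher and 1 did not pass, against 0 higher, 2 lower and 1 that did not pass. Carm1, an arginine methyltransferase, was at 1.68 (adjusted p = 4.20e-15) relative to the controls used here and at -1.87 (adjusted p = 3.01e-17) on the deposited values. Beside these counts stand the 37.8% of all genes that were higher and the 46.8% that were lower.

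Whole oocytes and embryos allow a view without control genes, since each tube held all RNA of 1 individual. The measure is 30 minus Ct, in which 0 means undetected. Here the 3 control genes themselves averaged 17.07 in zygotes, 15.48 in 2-cell embryos, 16.84 in 8-cell embryos and 17.35 in 32-cell embryos. From zygote to 2-cell embryo (14 against 3) all 6 members again changed, in the same directions as before, where 77.6% of all genes did. Prdm10 rose by 3.30 ± 0.43, Prdm15 by 2.39 ± 0.37 and Prdm14 by 6.04 ± 2.24, while the median of all genes dropped by 1.79. Prdm4 fell by 2.04 ± 0.36, Mecom fell by 3.47 ± 0.97 and Prdm6 fell by 10.29 ± 1.80. Prdm6 had a signal in 1 of the 3 2-cell embryos and Prdm14 in 7 of the 14 zygotes. Both sizes therefore depend on the 0 that stands for no signal. Over 11 alternatives the Prdm6 difference lay between -13.89 and -6.96 and the Prdm14 difference between 3.54 and 7.63. The Prdm14 call was lost without 2-cell embryo 3 (5.38, adjusted p = 0.0747), whose control genes were the lowest of the 3 (13.94).

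The Prdm10 content of whole embryos lay between 13.43 and 15.05 at 2 cells, and was 14.57, 14.83 and 15.07 at 4 cells, and 15.19, 15.18 and 14.48 at 8 cells, all above the highest zygote (12.24). Mecom had a signal in all whole embryos of 2 cells (8.59, 8.41 and 7.72) and of 4 cells (8.00, 7.54 and 7.35), and in none of the 3 of 8 cells. This fall to below detection passed the test (-8.24 ± 1.25, adjusted p = 2.60e-06). A signal was seen again in 2 of 3 whole embryos of 16 cells (6.75 and 8.21) and 1 of 3 of 32 cells (7.23). Without 32-cell embryo 2 or 3 the difference from 8 to 32 cells passed the test (3.62, adjusted p = 0.0326 and 0.0303), and with all embryos it did not (2.41, adjusted p = 0.127).

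Prdm6 behaved otherwise in whole embryos. It was detected in 1 of 3 embryos at 2 cells (10.80), in 2 of 3 at 4 cells (9.79 and 6.17), in 3 of 3 at 8 cells (11.07, 10.15 and 8.34) and in 1 of 3 at both 16 cells (10.16) and 32 cells (10.27). The difference from 2 to 8 cells was 6.26 ± 2.31 (adjusted p = 0.0328) and that from 8 to 32 cells -6.43 ± 2.31 (adjusted p = 0.024). Each was lost in 4 of the 9 fits that left out 1 embryo. For 2 to 8 cells these were 2-cell embryos 2 and 3 and 8-cell embryos 1 and 2 (adjusted p up to 0.211), and for 8 to 32 cells 8-cell embryos 1 and 2 and 32-cell embryos 1 and 2 (adjusted p up to 0.157). Where Prdm6 gave a signal from 2 to 32 cells, its content lay between 6.17 and 11.07, and the stages differed in how many embryos gave one.

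Prdm15 went down from 2 to 8 cells by 1.27 ± 0.48 (adjusted p = 0.0364) and up from 8 to 32 cells by 1.17 ± 0.48 (adjusted p = 0.0498) in whole embryos. Of the 9 fits without 1 embryo, 5 lost the first call (without any one of the 2-cell embryos, or without 8-cell embryo 1 or 3, with adjusted p up to 0.151). The other call was lost in 6 of 9, without 2-cell embryo 1 or 2, 8-cell embryo 1 or 3, or 32-cell embryo 2 or 3 (adjusted p up to 0.302). Prdm4 had means of 15.56, 15.51 and 15.45 at 2, 8 and 32 cells, and its content from 2 to 8 cells did not pass the test (-0.05 ± 0.46, adjusted p = 0.965). Relative to the 3 control genes, which were higher at 8 cells, the same embryos gave -1.42 (adjusted p = 2.07e-06). Among all genes, 38.5% changed from 2 to 8 cells (3 of 6 members) and 40.4% from 8 to 32 cells (2 of 6). The 3 whole 16-cell embryos had higher means than the 8- and 32-cell embryos for Prdm10 (18.36), Prdm14 (14.02) and Prdm15 (15.22), and for the control genes (19.26), a step that was not tested.

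**Figure D3:**
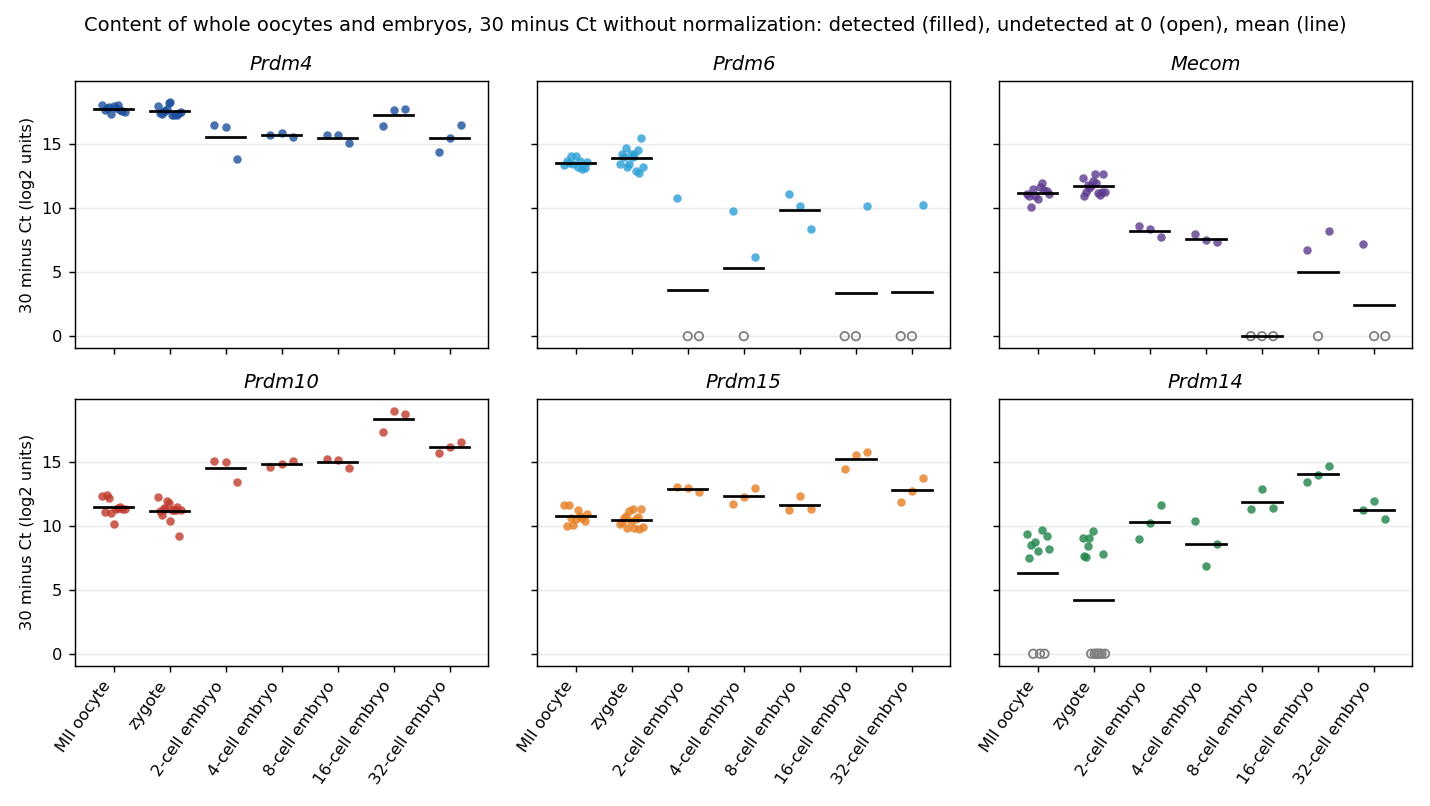
Content of whole oocytes and embryos as 30 minus Ct (log2, vertical axis) by stage (horizontal axis), with undetected samples at 0 (open points) and the mean as a line. Prdm10 stays near 15 from 2 to 8 cells, Mecom is at 0 in all 3 8-cell embryos, and Prdm6 has a signal in all 3 8-cell embryos only among the cleavage stages.

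In sister blastomeres, isolated from 3 embryos of 4 cells and 4 embryos of 8 cells, some members were detected throughout and others in a part of the sisters. Not all sisters of every embryo were sampled (9 and 24 blastomeres). Prdm4 and Prdm10 were detected in all 33, with SDs within embryos of 0.39 and 0.47 at 4 cells and 0.87 and 0.65 at 8 cells. The median over 156 genes was 0.51 at 4 cells and 0.64 at 8 cells, but includes genes with undetected blastomeres. Over the genes detected in all blastomeres (117 at 4 cells and 112 at 8 cells) it was 0.39 and 0.55. Against the latter medians, Prdm4 lay at the median and Prdm10 above it at 4 cells. Both lay above it at 8 cells, where 54 of the 156 genes were more variable than Prdm4. Prdm15 was detected in all 9 and in 22 of 24, with SDs of 0.58 and 1.85.

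Prdm14 varied much more between sisters. The SD within embryos was 4.70 at 4 cells and 4.17 at 8 cells, and 8 and 7 of the 156 genes were more variable. A signal was present in 1 of 2, 2 of 3 and 3 of 4 blastomeres of the 4-cell embryos. Of the 8-cell embryos, e5 had a signal in 8 of 8 blastomeres (-7.47 to -3.56), e4 in 5 of 8, e6 in 4 of 5 and e7 in 1 of 3. Sisters with a signal ranged from -7.47 to -2.94 at 8 cells, and in embryo e5, where none lacked it, the SD was 1.22. The control Ct averaged 15.4 in 8-cell blastomeres with and 14.7 in those without a Prdm14 signal, that is, less control RNA where Prdm14 was seen. At 4 cells it was the other way round, with 14.9 and 15.6. The 3 aliquots of ESC RNA of 200 pg each differed by an SD of 0.64 for this gene. They held more control RNA (control Ct of 14.2, 13.9 and 13.8), with Prdm14 at a mean of -4.54. Their SD is therefore no measure of detection at the lower amounts of these blastomeres, and the part of detection near the limit was not tested.

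Prdm6 and Mecom were also patchy, but so were aliquots of 1 RNA. Prdm6 had a signal in 2 of 9 sisters at 4 cells and 7 of 24 at 8 cells, and in 1 of the 3 ESC aliquots. Mecom had one in 5 of 9, 3 of 24 and 1 of 3. The SD among the aliquots was 5.40 for Prdm6 and 3.89 for Mecom. Within embryos it was 4.86 and 3.91 at 4 cells and 3.86 and 1.99 at 8 cells. Each of these SDs depends on the value that stands for no signal. They therefore cannot tell patchiness between sisters apart from detection at the limit of the assay, which was not tested. In embryo e7 of 8 cells the 3 blastomeres each lacked a different set of genes. The first had Mecom but not Prdm14, Prdm15 or Prdm6, the second Prdm15 and Prdm6, and the third Prdm14 alone of these 4.

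**Figure D4:**
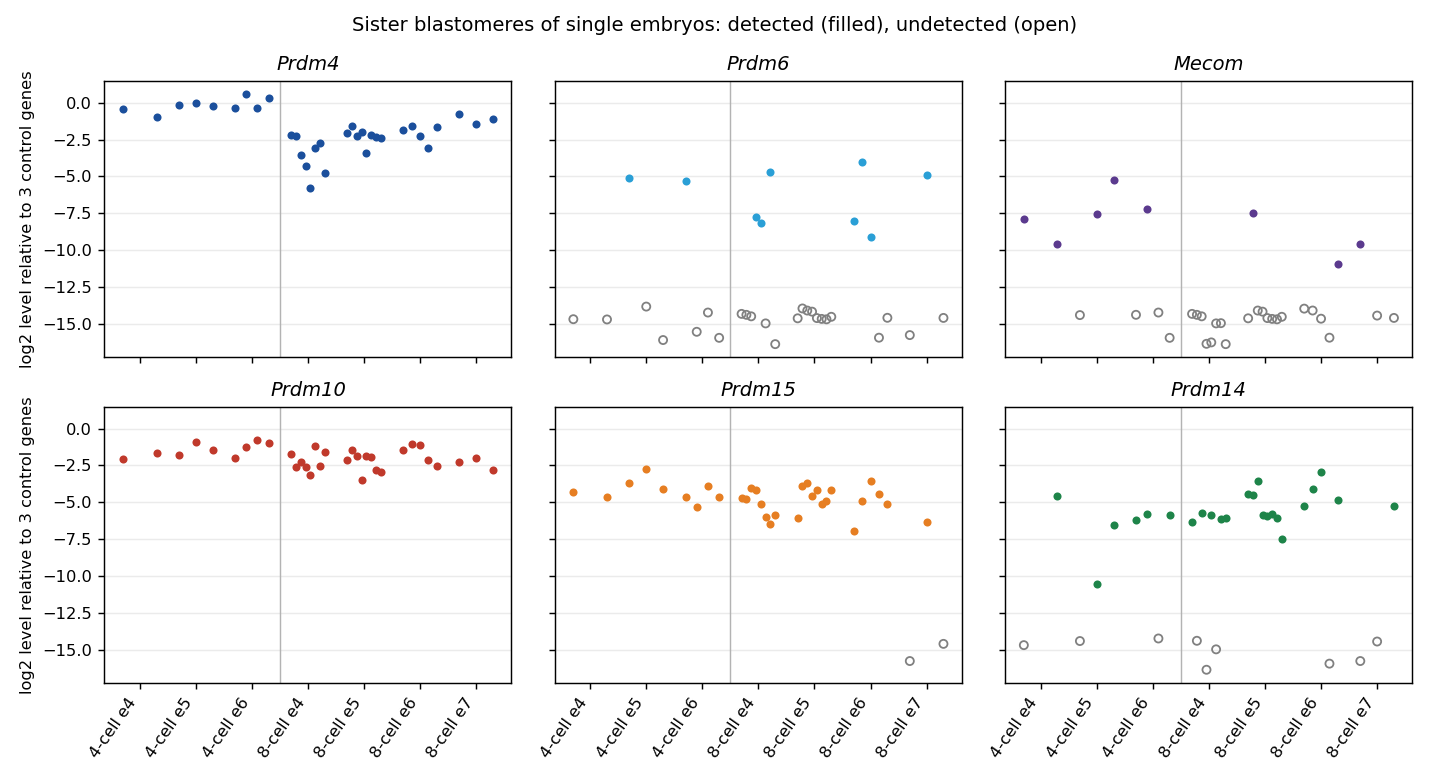
Level in each blastomere (log2 relative to 3 control genes, vertical axis) of 7 embryos (horizontal axis), with open points for undetected. Prdm4 and Prdm10 have a signal in every blastomere, and Prdm14 has a signal in all 8 sisters of embryo e5 and in 1 of 3 of embryo e7.

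In the 76 samples of 16- and 32-cell embryos, cells take the path of the inner cell mass, which forms the embryo proper, or of the trophectoderm, which contributes to the placenta. A lineage score was computed from 12 genes the study named for the inner cell mass and 8 it named for the trophectoderm, as the difference of their mean levels. Prdm14 is one of the 12, chosen by the study on these same samples, so its relation to the score is not independent evidence, and it was left out of its own score. The coefficients are Spearman rho over samples that share 9 embryos, and are given as a description. Prdm14 had rho = 0.67, with 5 of 156 genes above it and a median of 0.11 over all genes. Prdm14 also had rho = 0.44 with the control Ct (0.55 at 16 cells and in single cells, 0.16 at 32 cells), whose part in the result was not tested. Centring each embryo on its mean gave 0.61, single cells alone 0.66 (52 samples), and the 16- and 32-cell stages on their own 0.56 and 0.52.

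Prdm14 was detected in 38 of the 76 samples. In samples with a signal the score was at least -3.77, whereas the score over all samples reached down to -8.09. Absence was not limited to low scores, since samples without a signal had scores of up to 9.25. Within the 38 samples with a signal rho was 0.20. It was 0.48 in the 8 of them at 16 cells, 0.06 in the 30 at 32 cells and 0.33 in the 24 single cells. These samples span only a part of the score, and whether the relation is one of presence or of level was not tested. By embryo, a signal was found in 3 of 13 and 5 of 13 samples at 16 cells, and at 32 cells from 2 of 5 to 3 of 3. The coefficient was between 0.33 and 0.89 in the 6 embryos with at least 6 samples.

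Prdm15 had a weaker relation, with rho = 0.39 over all samples and 0.52 over the 66 with a signal. On the deposited values these were 0.22 and 0.31, and Pearson's r over the 76 samples was 0.15. Prdm10 (-0.01) and Prdm4 (0.15) showed little relation, though Prdm10 reached 0.55 in the 26 samples of 16 cells and -0.12 in the 50 of 32 cells. For Prdm6 (0.40) and Mecom (0.27), with a signal in 13 and 5 of the 76 samples, the order of samples is mainly that of undetected values, which follow the control genes (rho with the control Ct of 0.50 and 0.78). Within the 13 samples with a Prdm6 signal rho with the score was -0.06. Between members, Prdm14 and Prdm15 had rho = 0.33 over the 76 samples and 0.27 with embryos centred, and Prdm4 and Prdm10 0.22 and 0.20. A group of cells isolated from the inner cell mass had Prdm14 at -3.52 and Prdm15 at -3.35, and one from the trophectoderm had -5.64 and -4.28, with 1 sample of each and no test. Neither belongs to the 76. Their lineage scores without Prdm14 were -0.14 and -3.97, so the trophectoderm group had a Prdm14 signal at a score below -3.77, the lowest with a signal among the 76.

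**Figure D5:**
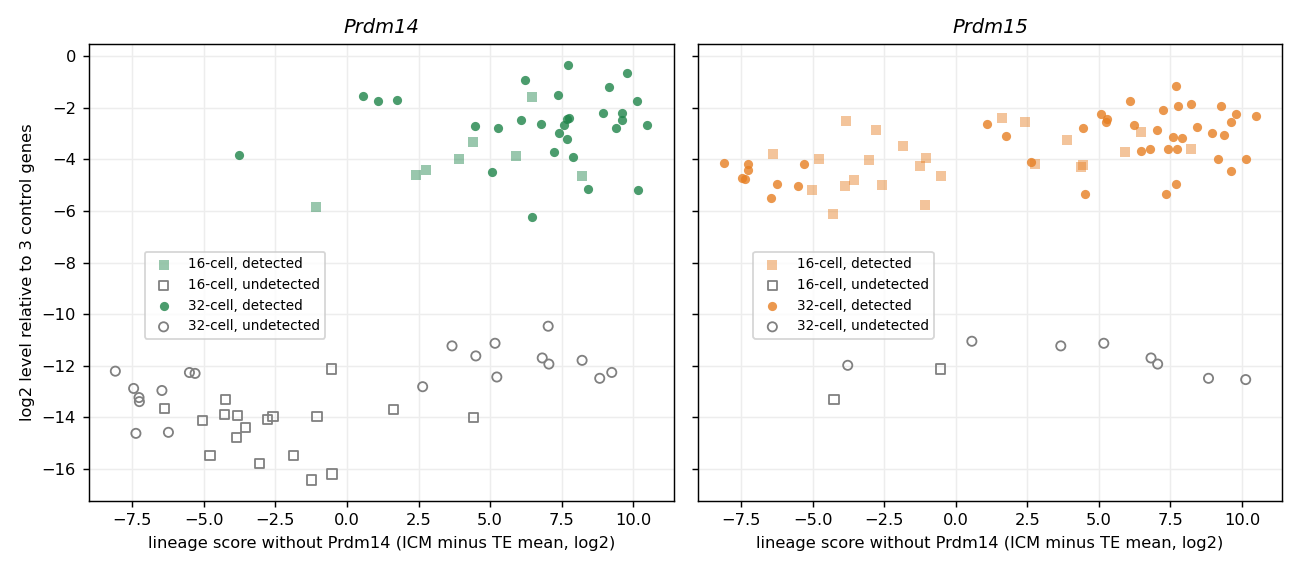
Prdm14 and Prdm15 (log2 relative to 3 control genes, vertical axis) against the lineage score computed without Prdm14 (horizontal axis) in 76 samples of 16 cells (squares) and 32 cells (circles), open where undetected. Prdm14 has signal at scores of -3.77 and above but is also absent from samples up to 9.25, while Prdm15 has signal along the whole axis.

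RNA of embryonic stem cells (ESC), cell lines derived from the inner cell mass, gave a reference for the assays. In 10 samples of 25 to 800 pg RNA, Prdm4, Prdm10, Prdm14 and Prdm15 were detected in all 10, Mecom in 4 and Prdm6 in 1. Prdm14 lay between -5.23 and -1.90 (mean -3.43 ± 1.00, SD, n = 10 aliquots of RNA, not cultures), and Prdm15 between -3.47 and -1.95. The detected values of Prdm14 in 32-cell samples averaged -2.69 ± 1.36 (SD, 30 of 50 samples), within the range of the ESC samples. Over the dilution series the signal of the 4 genes rose by 0.87 to 1.34 cycles per doubling of RNA, where 1 is ideal. Mecom gave a signal at 200 pg but not at 25, 50 or 100 pg in one series, and at 160 and 800 pg but not at 32 pg in the other. At 200 pg it was detected in 1 of the 3 aliquots of the remaining set.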

How the data were processed

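Microfluidic quantitative PCR was run after 18 cycles of preamplification on 189 samples with 192 assays, of which the study marked 36 as failed. The authors deposited Ct values (a score in cycles, with undetected set to 30) and a normalized table of log2 values that equals 30 minus Ct relative to Gapdh, Hspa8 and Lmnb1 (largest deviation 1.03e-08), other control genes than those the methods name. Here 30 minus Ct was set relative to the mean of Hnrnpr, Ssu72 and Ube2e1, the controls of the methods. A total of 6 values above 30, 1 of them in a member, counted as undetected. Ct values hold no read depth, and the number of samples limits the precision.

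Stages were compared with limma 3.58.1 in R 4.3.3 on 58 oocytes, zygotes and embryos in 1 fit, with Benjamini-Hochberg adjustment over 156 genes and a threshold of 0.05. Whole oocytes and embryos were compared in a separate limma fit on 30 minus Ct. Spread between sisters, the lineage score and ESC RNA were described without a test (Python 3.11.15, scipy 1.17.1). The fit was tested on simulated data. Named genes were the 6 members, the 2 genes most correlated with each, and lists of the pluripotency network, PRC2 and H3K9 and H4K20 methyltransferases, with Carm1 and Prdm2. The members and lists were chosen with earlier results of these data known. Other scalings, floors, sample sets and blocks, and leaving out embryos, were tried. The fit without the 8-cell embryo e7 and the lists on the deposited values were chosen after seeing the data.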

Additional observations from a re-analysis of the deposited data

Results flagged for a closer look

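Among 30 tests for a single embryo far from its group, 2 embryos stood apart, where chance gives about 1 in 20 groups. For Prdm15 at 8 cells, embryo e7 had a mean of -12.22, against -5.79 for the nearest and -4.57 for the highest of 7 embryos, and 1 of its 3 blastomeres gave a signal. For Mecom at 4 cells, embryo e6 had a mean of -12.93, against -9.05 for the nearest and -7.95 for the highest of 6 embryos.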

How the results depend on the processing

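The 6 calls from zygote to 2-cell were made under all 17 alternatives, except Prdm4, which was called in 11 (-3.56 to -0.14). Relative to controls, whole embryos lost the Mecom call in that step (-1.88, adjusted p = 0.13). Among differences that passed the test in the main or the alternative fit, directions reversed only under 2 scalings. Some that passed in neither also changed sign, such as Prdm10 from 2 to 4 cells (-0.30 to 1.42 over the alternatives). On the deposited values Prdm10 was at -1.71 from 8 to 16 cells, and between MII oocyte and 16 or 32 cells Prdm10 was at -0.18 and Prdm15 at -1.87. With no normalization Prdm10, Prdm14 and Prdm15 were at -0.92, -0.66 and -2.61 in the latter comparison. The number of members changed from 2 to 4 cells (1) was 0 with no normalization, without Ube2e1, with the embryo as a random block, with single cells only at 16 and 32 cells and without 2-cell samples titled with an A, 3 with values below -10 set to -10, and 2 with every sample as a replicate. From 4 to 8 cells (3) it was 1 with no normalization. From 8 to 16 cells (0) it was 4 on the deposited values, 1 with the sample median or with every sample as a replicate, and 2 with all mapped samples. From 16 to 32 cells (0) it was 1 with no normalization, the floor of -10 or the random block, and 2 with every sample as a replicate.

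Leaving out 1 whole embryo gave 5 to 6 members from zygote to 2-cell, 1 to 3 from 2 to 8 cells and 0 to 2 from 8 to 32 cells. Leaving out either 16-cell embryo gave the same counts of members. The replicate numbers of the labels do not pair samples (median correlation -0.0074 over 420 pairs of equal number, 86 over 0.1). With the replicate block the counts were 2, 1 and 2 for 2 to 4, 8 to 16 and 16 to 32 cells. Causes were not tested. With the floor of -10 the SD between sisters of Prdm14 was 2.41 at 4 and 2.06 at 8 cells.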
